A study of Homo sapiens with 6 samples.

Results

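The interferon response genes are 43 genes, chosen by gene name from the 58735 genes measured in HaCaT, a line of human keratinocytes that became immortal spontaneously. They comprise 12 signalling genes, of which 6 are regulators (STAT2 and 5 IRF factors) and 6 are receptor chains and kinases, and 31 effector genes. All 43 names were found once in the table. The samples were 3 HaCaT samples exposed for 48 h to dacomitinib, which blocks EGFR and its related receptor kinases irreversibly, and 3 control samples of the same wild-type line. Treatment began at 70% confluence. The design text attaches 0.1% DMSO to the experimental group, and the sources used here give neither a dose nor the vehicle of the controls. HaCaT is a single cell line. Separate cultures are not mentioned in the labels, so the p-values below describe the spread among these 6 samples, which may be technical. The dacomitinib columns carry a letter found in no label and were assigned by elimination, on which every direction rests.

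Interferons are secreted proteins that cells release on detecting viral or other foreign nucleic acid. Type I interferons bind the receptor chains IFNAR1 and IFNAR2, and interferon gamma binds IFNGR1 and IFNGR2. JAK1 is a kinase on both of these receptors and TYK2 on that of type I interferons, and they activate STAT factors. STAT2 joins IRF9 in a complex that binds the interferon-stimulated response element (ISRE) in the promoters of effector genes, whereas interferon gamma acts mainly through gamma-activated sites (GAS). Keratinocytes are sentinel cells of the skin and express many effector genes at a basal level.

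Promoters are shown to place the ISRE, so members whose window holds a match were preferred among those called in the same direction under each scaling. In the RefSeq promoter table (GRCh38.p14), 32 of the 43 genes had at least 1 window of 250 bases before to 50 bases after a start, with 45 windows in all. The ISRE was searched as GAAANNGAAA and the GAS as TTCNNNGAA, on both strands. A match on both strands at one position was counted once, and the motifs may overlap each other. The table places IFI6 at chr1:27672193-27672442 and BST2 at chr19:17405631-17405880, both on the minus strand, and OAS3 at chr12:112938224-112938473 and OAS1 at chr12:112906712-112906961, both on the plus strand. Each sequence is the 250 bases before the start, 5′ to 3′ on the gene's strand. Capitals mark ISRE matches in IFI6, BST2 and OAS3, and the GAS match in OAS1. The 2 GAS matches of BST2 are not marked. IFI6 and BST2 were higher with dacomitinib and OAS3 was lower. STAT2 and IRF1, which had larger differences than BST2, held no ISRE match in their windows and are not shown. TRIM22, OASL and USP18 had no window, so their promoters could not be searched. Of OAS3, OASL and USP18, the members called lower under each scaling, only OAS3 had a window. OAS1, the neighbour of OAS3, was added after its values were seen.
IFI6: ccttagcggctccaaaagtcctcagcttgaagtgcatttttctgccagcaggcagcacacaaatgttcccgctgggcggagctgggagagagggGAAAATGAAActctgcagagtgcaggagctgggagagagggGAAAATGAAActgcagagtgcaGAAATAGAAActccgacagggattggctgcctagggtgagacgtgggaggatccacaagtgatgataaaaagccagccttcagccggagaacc
BST2: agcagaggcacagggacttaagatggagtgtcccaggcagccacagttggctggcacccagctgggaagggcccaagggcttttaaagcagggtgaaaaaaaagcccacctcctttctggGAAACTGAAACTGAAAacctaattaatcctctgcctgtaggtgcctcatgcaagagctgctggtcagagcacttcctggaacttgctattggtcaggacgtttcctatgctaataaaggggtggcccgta
OAS3: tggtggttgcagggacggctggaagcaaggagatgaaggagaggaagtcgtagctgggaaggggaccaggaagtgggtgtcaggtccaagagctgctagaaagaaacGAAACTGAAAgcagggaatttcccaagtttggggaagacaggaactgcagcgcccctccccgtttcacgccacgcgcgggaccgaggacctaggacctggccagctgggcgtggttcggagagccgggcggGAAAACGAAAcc
OAS1: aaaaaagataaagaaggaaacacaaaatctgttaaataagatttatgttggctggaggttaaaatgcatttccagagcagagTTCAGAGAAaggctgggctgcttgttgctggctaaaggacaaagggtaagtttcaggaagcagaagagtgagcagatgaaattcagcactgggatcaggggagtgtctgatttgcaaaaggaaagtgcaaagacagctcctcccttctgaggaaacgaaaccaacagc

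In IFI6 the 3 ISRE matches began 156, 115 and 93 bases before the start, in BST2 the 2 matches overlapped and began at 130 and 124, and in OAS3 they began at 143 and 12. BST2 also held 2 GAS matches, which began 136 and 58 bases before the start. OAS1 held no match to the searched ISRE pattern in its window, and its GAS match began 168 bases before the start. Near its end the printed OAS1 sequence holds gaaacgaaa, which is a base shorter than that pattern and was not counted. An ISRE match lay in 23 of the 45 member windows (51.1%), against 3.57% of all 35116 windows. It lay in 23 of 33 effector windows and in 0 of 12 windows of signalling genes. A GAS match lay in 10 of the 45 windows (22.2%), among them that of IRF1, against 7.66% of all windows. Counted by gene, 5 of the 12 members called higher that had a window held an ISRE match, 2 of the 3 called lower and 7 of the 10 not called. The 12 include 5 signalling genes, of which 0 held a match. Among effectors alone the counts were 5 of 7 called higher, 2 of 3 called lower and 7 of 8 not called. Matches are a description of these letters and were not tested for binding.

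Values are FPKM as deposited, which are fragments scaled by gene length and library size. A gene was tested when its mean over the 6 libraries was at least 1 FPKM, by limma on log2(FPKM + 1) over all 13748 such genes. It was called when the Benjamini-Hochberg adjusted p was under 0.05. Differences are dacomitinib minus control, with the standard error (SE), and understate the change of weakly expressed genes. Of the 43 members, 34 were tested, 14 were higher, 6 were lower and 14 were not called. The background was 25.4% of tested genes higher and 34.8% lower, against 41.2% and 17.6% of the 34 members. The median difference was 0.14 over the tested members and -0.06 over all tested genes. By role, 6 of 10 tested signalling genes were higher and 0 lower (median 0.40), while 8 of 24 tested effectors were higher and 6 lower (median 0.11).

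**Figure D1:**
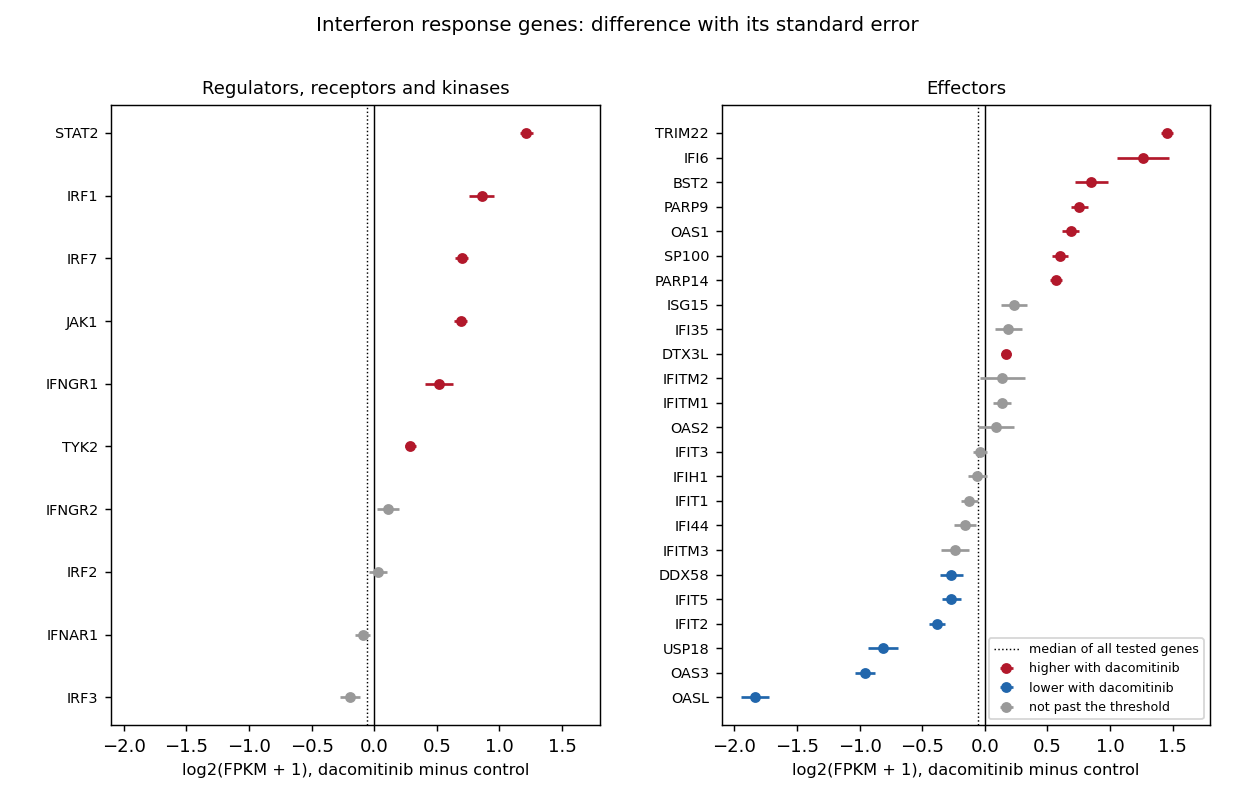
Difference in log2(FPKM + 1), dacomitinib minus control, with its standard error, for the 34 tested members; the left panel holds the 10 signalling genes and the right panel the 24 effectors. Among signalling genes STAT2 (1.22) lies farthest to the right and no call lies to the left of 0, and among effectors the calls run from TRIM22 (1.46) to OASL (-1.84).

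The calls depended on the scaling between libraries. The authors' FPKM imply a library size that, divided by the library's own fragment sum, was 1.07 ± 0.0244 with dacomitinib and 0.952 ± 0.00449 in controls (SD, n = 3). Scaled to that sum, the median of all tested genes moved by 0.14 on the log2 scale, and 18 of the 34 members were higher and 4 lower. Scaled to TPM, which has the same sum in each library, the median of all tested genes moved by 0.29 on the log2 scale. With TPM 42.0% of tested genes were higher and 19.8% lower, and 23 of the 34 members were higher and 3 lower. The members' median was 0.19 above that of all tested genes with the deposited scaling and 0.22 above it with TPM. For the signalling genes it was 0.46 and 0.50 above, and for the effectors 0.17 and 0.19 above. The 14 members called higher were called higher under each of 5 scalings, as were 3241 of the 3493 tested genes called higher (23.6% of all tested genes). The other scalings moved the median of all tested genes up or left it in place, so higher calls were easier to keep than lower ones. Of the 6 called lower, OAS3, OASL and USP18 were called lower under each of the 5, as were 2714 of the 4778 tested genes called lower (19.7% of all tested genes).

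**Figure D2:**
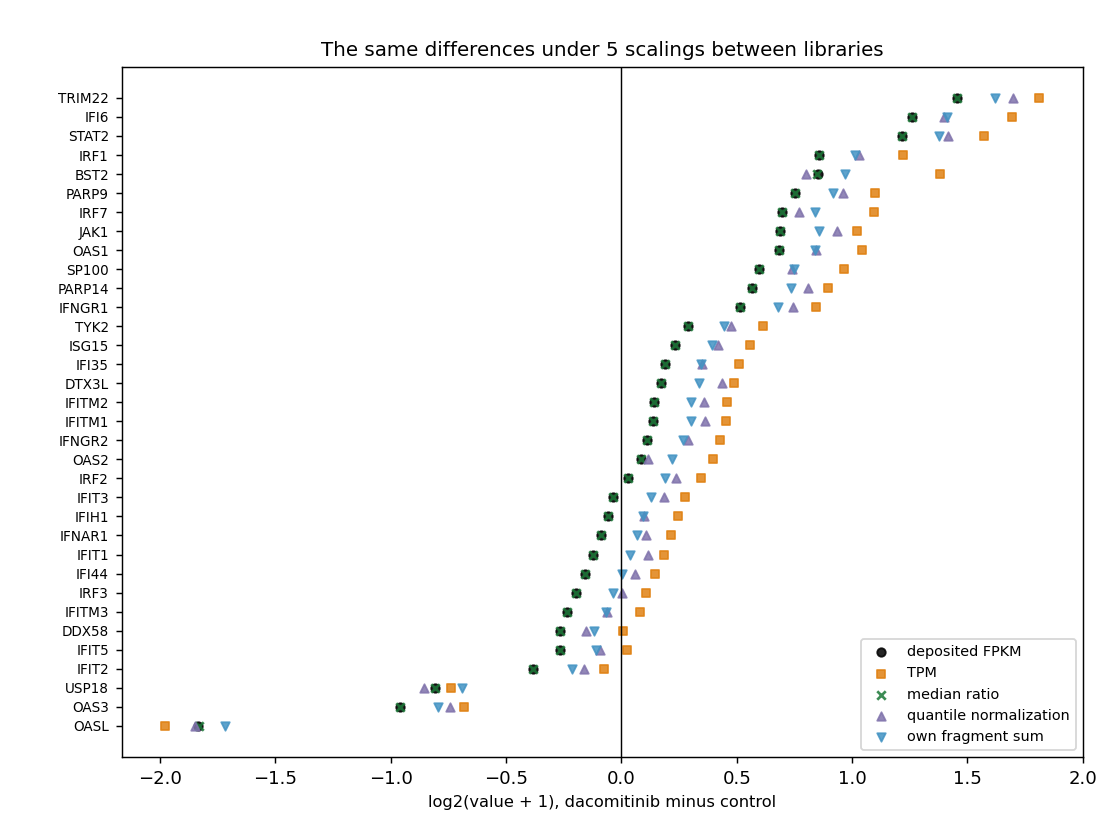
Difference in log2(value + 1), dacomitinib minus control, of the 34 tested members under 5 scalings between libraries. The median ratio points lie on those of the deposited FPKM, the TPM points lie to the right for all members but OASL, and only OASL, OAS3, USP18 and IFIT2 stay to the left of 0 throughout.

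STAT2, the STAT factor of the type I response, was the most changed regulator (ENSG00000170581, chromosome 12, 56341597 to 56360155, GRCh38). It had 29.2, 31.3 and 31.8 FPKM with dacomitinib, against 12.7, 12.3 and 13.0 FPKM in controls. The groups were far apart and each was narrow. The difference was 1.22 (SE 0.05, adjusted p = 4.54e-06), above that of 96.8% of tested genes. IRF1, a factor induced by interferon gamma (ENSG00000125347, chromosome 5, 132481609 to 132490798), had 17.9, 13.7 and 14.3 FPKM with dacomitinib, against 8.11, 7.66 and 8.10 FPKM in controls. The first dacomitinib library was the highest and the groups did not overlap, with a difference of 0.86 (SE 0.10, adjusted p = 0.000379). C5orf56, a transcript on the opposite strand that shares 22% of the exon bases of IRF1, averaged 3.40 FPKM with dacomitinib and 1.38 FPKM in controls. Whether reads were counted by strand is not stated, and without strand the shared bases cannot be assigned to one gene or the other. IRF7, which amplifies interferon alpha production (chromosome 11, 612553 to 615999), had 6.50, 6.51 and 6.69 FPKM with dacomitinib, against 3.68, 3.73 and 3.60 FPKM in controls. Its difference was 0.70 (SE 0.05, adjusted p = 5.45e-05).

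The other IRF members did not pass. IRF2, which often opposes IRF1, averaged 14.6 ± 0.0205 FPKM with dacomitinib and 14.3 ± 1.44 FPKM in controls (SD, n = 3). IRF3, the factor activated by nucleic acid sensors, averaged 12.1 ± 0.587 FPKM with dacomitinib and 14.1 ± 1.501 FPKM in controls. Its groups did not overlap, yet the adjusted p was 0.0734, and 0.0365 without control replicate 2. BCL2L12, on the opposite strand, shares 19.35% of the exon bases of IRF3 and averaged 2.92 FPKM with dacomitinib and 8.42 FPKM in controls. IRF2 passed as higher with TPM (0.34, adjusted p = 0.00594), and its difference, 0.03 over all libraries, was -0.05 without control replicate 3. Within a library, where scaling cancels, the ratio of STAT2 to IRF2 in FPKM was 2.12 ± 0.0965 with dacomitinib and 0.896 ± 0.117 in controls.

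Of the receptor chains, IFNGR1 was higher, at 38.5, 30.2 and 29.3 FPKM with dacomitinib and 21.7, 24.4 and 21.15 FPKM in controls (difference 0.52, SE 0.11, adjusted p = 0.00661). The first dacomitinib library was again the highest. Its partner IFNGR2 averaged 11.7 ± 1.54 FPKM with dacomitinib and 10.7 ± 0.410 FPKM in controls, with overlapping groups. IFNAR1 averaged 12.5 ± 0.898 FPKM with dacomitinib and 13.4 ± 0.376 FPKM in controls, also overlapping. With TPM both passed as higher, IFNGR2 at 0.43 (adjusted p = 0.00564) and IFNAR1 at 0.22 (adjusted p = 0.0494). IFNAR2 was below the expression limit, at 39, 19 and 17 fragments with dacomitinib and 24, 27 and 53 in controls. A read-through gene of the same strand shares 44.2% of its exon bases.

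Both kinases were higher. JAK1, used by type I and type II receptors (chromosome 1, 64833229 to 64966504), had 39.8, 39.2 and 36.0 FPKM with dacomitinib, against 23.5, 24.1 and 22.6 FPKM in controls. Its difference was 0.69 (SE 0.05, adjusted p = 6.12e-05). TYK2, the partner kinase on IFNAR1, had 13.0, 13.1 and 12.3 FPKM with dacomitinib, against 10.3 FPKM in each control. This was a smaller difference, 0.29 (SE 0.04, adjusted p = 0.00144), with groups that did not overlap. Summed over the 12 signalling genes, the dacomitinib libraries held 198, 188 and 180 FPKM and the controls 133, 135 and 133 FPKM.

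**Figure D3:**
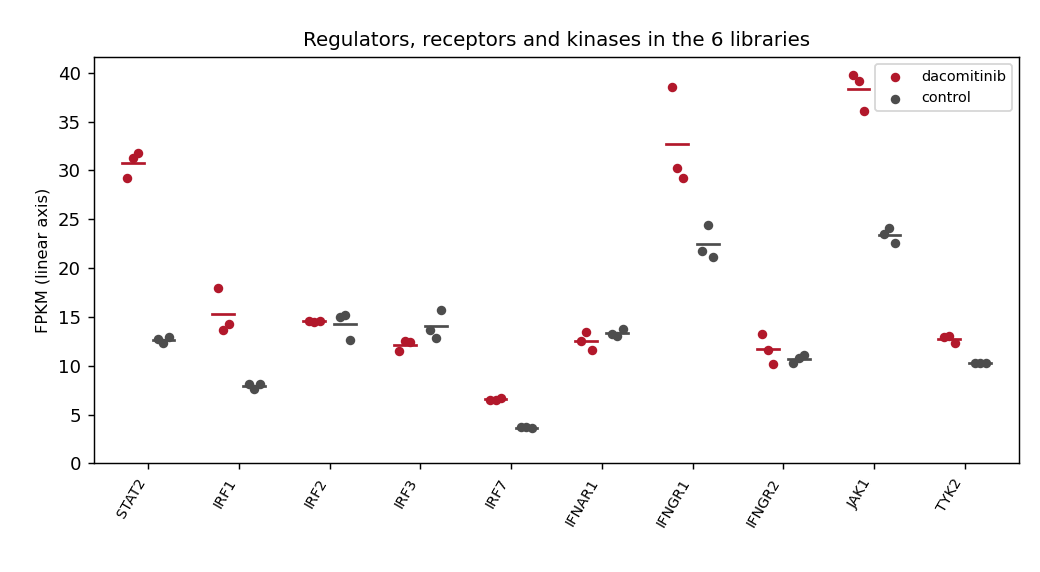
FPKM of the 10 tested signalling genes in each of the 6 libraries (points) with the group mean (line), on a linear axis from 0. STAT2, IRF1, IRF7, IFNGR1, JAK1 and TYK2 have all 3 dacomitinib libraries above all 3 controls, and the 2 groups of IRF2, IFNAR1 and IFNGR2 overlap.

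Among RNA sensors and RNA-binding effectors 0 of 6 were higher and 3 were lower, where 25.4% of all tested genes were higher and 34.8% lower. With TPM 2 of the 6 were higher and 0 lower. IFIT1, IFIT2, IFIT3 and IFIT5, which bind foreign RNA, lie side by side on chromosome 10. IFIT2 had 28.1, 24.8 and 23.8 FPKM with dacomitinib, against 33.1, 33.5 and 33.9 FPKM in controls, and its difference was -0.38 (SE 0.06, adjusted p = 0.00217; -0.08 and adjusted p = 0.285 with TPM). IFIT5 had 9.14, 8.81 and 9.99 FPKM with dacomitinib, against 12.0, 11.9 and 10.4 FPKM in controls, a difference of -0.27 (SE 0.07, adjusted p = 0.0178). That call was lost on leaving out dacomitinib replicate 2 (adjusted p = 0.0562), control replicate 1 (adjusted p = 0.0638) or control replicate 2 (adjusted p = 0.0584), and with a replicate block (adjusted p = 0.0507). With TPM the difference was 0.023 (adjusted p = 0.806). IFIT1 averaged 18.2 ± 0.648 FPKM with dacomitinib and 19.98 ± 1.74 FPKM in controls, and IFIT3 averaged 31.6 ± 1.59 FPKM with dacomitinib and 32.4 ± 1.63 FPKM in controls. Neither passed, though IFIT3 passed as higher with TPM (0.28, adjusted p = 0.00709) and with quantile normalization (0.19, adjusted p = 0.0263).

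DDX58, which encodes the RNA sensor RIG-I, had 5.71, 5.57 and 5.73 FPKM with dacomitinib, against 7.98, 7.09 and 6.11 FPKM in controls. The difference was -0.27 (SE 0.09, adjusted p = 0.0374), a call that did not hold in 9 of 19 alternatives (adjusted p from 0.00756 to 0.947 over all of them). It was lost without dacomitinib replicate 1, 2 or 3 (adjusted p = 0.0769, 0.0918 and 0.0817) and without control replicate 1 or 2 (adjusted p = 0.0982 and 0.0907). With TPM the difference was 0.0083. IFIH1, which encodes the sensor MDA5, averaged 8.64 ± 0.181 FPKM with dacomitinib and 9.08 ± 0.998 FPKM in controls, with overlapping groups. With TPM it passed as higher (0.24, adjusted p = 0.0421).

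The OAS genes differed in opposite directions. OAS1, OAS3 and OAS2 make the oligoadenylates that activate RNase L and lie in that order on chromosome 12, from 112906777 to 113011723. OAS1 had 12.7, 12.5 and 12.4 FPKM with dacomitinib, against 7.65, 8.03 and 6.65 FPKM in controls (difference 0.68, SE 0.07, adjusted p = 0.000218). OAS3, 5.13 kb downstream, had 12.9, 14.7 and 12.2 FPKM with dacomitinib, against 27.0, 24.9 and 27.9 FPKM in controls (difference -0.96, SE 0.08, adjusted p = 8.18e-05). Neither pair of groups overlapped. OAS2, 5.15 kb beyond OAS3, averaged 3.87 ± 0.914 FPKM with dacomitinib and 3.54 ± 0.318 FPKM in controls and did not pass. Within a library, the ratio of OAS1 to OAS3 in FPKM was 0.986, 0.853 and 1.02 with dacomitinib, against 0.283, 0.323 and 0.238 in controls. By the searched pattern the OAS3 window holds 2 ISRE matches and the OAS1 window none, as printed above. The shorter gaaacgaaa in the OAS1 window was not counted, and a part of these letters in the differences was not tested.

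OASL, a relative without oligoadenylate activity that enhances RIG-I signalling (chromosome 12, 121019111 to 121039242), had the lowest difference of the members. It had 1.68, 1.17 and 1.09 FPKM with dacomitinib, against 6.67, 7.41 and 7.58 FPKM in controls. The difference was -1.84 (SE 0.11, adjusted p = 2.45e-05), below that of all but 1.75% of tested genes, and -1.98 with TPM. ISG20, an RNA exonuclease, was not tested, its libraries holding 45 fragments in all with dacomitinib and 42 in controls.

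In the ISG15 system the protease was lower and the modifier itself did not pass. ISG15, a ubiquitin-like protein, had 11.4, 13.4 and 13.9 FPKM with dacomitinib, against 12.4, 9.72 and 10.4 FPKM in controls. It did not pass (difference 0.23, SE 0.10, adjusted p = 0.0941), but did without dacomitinib replicate 1 (adjusted p = 0.0443) or control replicate 1 (adjusted p = 0.0308) and with TPM (adjusted p = 0.00617). USP18, which removes ISG15 from proteins and restrains IFNAR2 signalling, had 1.43, 1.73 and 1.94 FPKM with dacomitinib, against 3.62, 3.26 and 4.34 FPKM in controls. Its difference was -0.81 (SE 0.12, adjusted p = 0.00120). The ratio of USP18 to ISG15 was 0.1315 ± 0.00778 with dacomitinib and 0.348 ± 0.0637 in controls (SD, n = 3).

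PARP9, DTX3L and PARP14 form a cluster on chromosome 3, from 122527924 to 122730840, and all 3 were higher. PARP9 and DTX3L, which form an ADP-ribosylating ubiquitin ligase, are transcribed away from each other and their gene bodies overlap by 217 exon bases. PARP9 had 21.1, 23.6 and 20.7 FPKM with dacomitinib, against 11.8, 12.6 and 13.2 FPKM in controls (difference 0.75, SE 0.07, adjusted p = 0.000111). DTX3L had 53.8, 55.2 and 53.9 FPKM with dacomitinib, against 47.1, 47.3 and 50.03 FPKM in controls (difference 0.17, SE 0.04, adjusted p = 0.0107). That call was lost without control replicate 1 (adjusted p = 0.0504). The ratio of PARP9 to DTX3L was 0.4015 ± 0.0221 with dacomitinib and 0.260 ± 0.00861 in controls. PARP14, a mono-ADP-ribosyltransferase, had 42.98, 46.1 and 42.7 FPKM with dacomitinib, against 29.6, 28.5 and 29.8 FPKM in controls (difference 0.57, SE 0.05, adjusted p = 8.17e-05).

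Of the membrane proteins, only BST2 passed with the deposited scaling. BST2, or tetherin, which holds budding virions at the cell surface, had 3.85, 3.61 and 3.13 FPKM with dacomitinib, against 1.96, 1.22 and 1.40 FPKM in controls (difference 0.85, SE 0.13, adjusted p = 0.00150). The IFITM proteins block virus entry. IFITM1 and IFITM2 share 351 exon bases on the same strand, so the counting could split their reads and their values are uncertain. IFITM3 had the highest level of the members, at 107, 82.0 and 95.7 FPKM with dacomitinib and 110, 123 and 102 FPKM in controls. Its groups overlapped (difference -0.24, SE 0.11, adjusted p = 0.111), and it passed as lower with voom (adjusted p = 0.0183) and on leaving out dacomitinib replicate 1 (adjusted p = 0.0395). A non-coding gene on the opposite strand, at 1.26 FPKM with dacomitinib and 0.0692 FPKM in controls, shares 21.3% of its exon bases. IFITM1 averaged 21.99 ± 1.88 FPKM with dacomitinib and 19.9 ± 1.17 FPKM in controls, passing as higher without dacomitinib replicate 3 (adjusted p = 0.0480) and with TPM (adjusted p = 0.00357). IFITM2 averaged 22.6 ± 5.72 FPKM with dacomitinib and 20.2 ± 2.77 FPKM in controls, its first dacomitinib library standing at 29.2 against 18.7 and 19.96 in the others, and it passed as higher with TPM (adjusted p = 0.0368). Without that library the IFITM2 difference was -0.05 (adjusted p = 0.736).

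TRIM22, an antiviral ubiquitin ligase (ENSG00000132274, chromosome 11, 5689689 to 5737089), had the largest rise of the tested members. It had 43.1, 45.6 and 42.6 FPKM with dacomitinib, against 15.7, 15.7 and 14.7 FPKM in controls, a difference of 1.46 (SE 0.05, adjusted p = 2.29e-06). IFI6, an interferon-induced membrane protein (chromosome 1, 27666061 to 27672218), had 11.7, 15.7 and 10.1 FPKM with dacomitinib, against 4.82, 3.30 and 5.82 FPKM in controls. It varied more within groups than TRIM22, with a difference of 1.26 (SE 0.21, adjusted p = 0.00194). SP100, a component of PML nuclear bodies, had 9.58, 9.41 and 8.78 FPKM with dacomitinib, against 6.19, 5.54 and 5.59 FPKM in controls (difference 0.60, SE 0.06, adjusted p = 0.000232). IFI35 averaged 10.6 ± 1.63 FPKM with dacomitinib and 9.14 ± 0.692 FPKM in controls. IFI44 averaged 14.3 ± 1.53 FPKM with dacomitinib and 16.1 ± 1.14 FPKM in controls. Both had overlapping groups. Without dacomitinib replicate 2 IFI35 passed as higher (adjusted p = 0.0347) and IFI44 as lower (adjusted p = 0.0326). IFI35 also passed as higher with TPM (0.51, adjusted p = 0.00439) and quantile normalization (0.35, adjusted p = 0.0254). It did so too when scaled to the own fragment sum (0.34, adjusted p = 0.0212), while IFI44 passed under none of the 5 scalings.

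**Figure D4:**
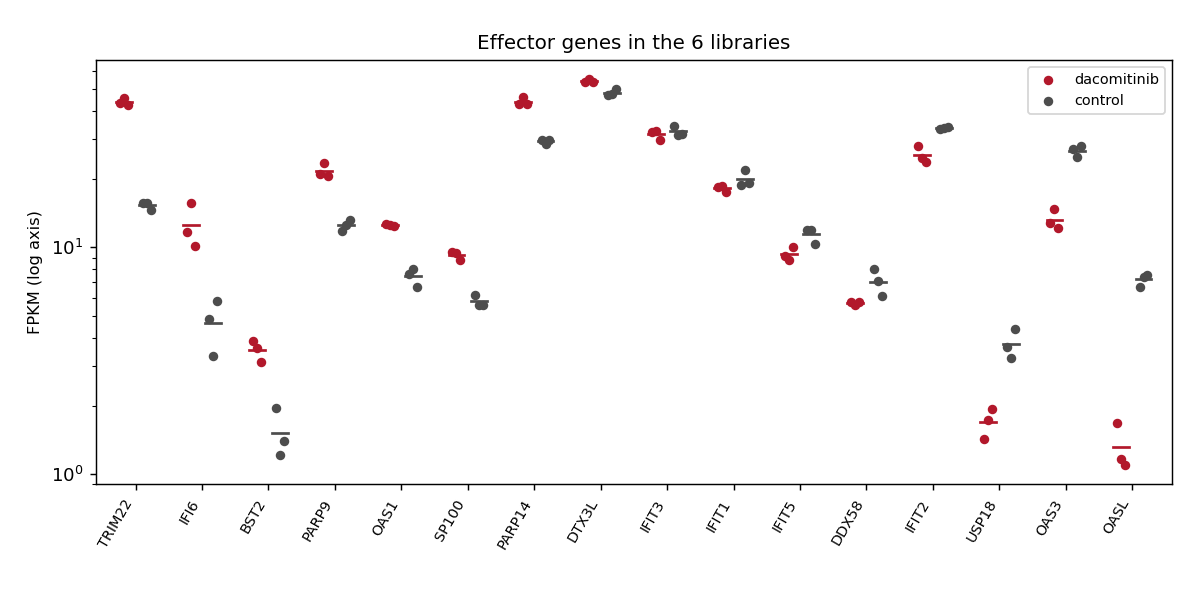
FPKM of 16 effector genes in each of the 6 libraries (points) with the group mean (line), on a log axis. Genes called higher stand on the left, from TRIM22 to DTX3L, and those called lower on the right, ending with OASL; IFIT3 and IFIT1, which were not called, lie between them.

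The remaining 9 members were below the expression limit, and their fragments were recovered from the deposited values. Limma-voom on the 23161 genes with at least 10 fragments, which called 22.3% higher and 23.0% lower, covered 8 of the 9; of the 42 members it covered, 17 were higher and 7 lower. XAF1, a pro-apoptotic partner of XIAP, had 68, 126 and 88 fragments with dacomitinib, against 17, 11 and 15 in controls (voom difference 2.46, SE 0.40, adjusted p = 3.09e-05). PRAL, on the opposite strand, shares 38.3% of its exon bases and was at 0.0178 FPKM with dacomitinib and listed at 0 in controls. IFI44L, the neighbour of IFI44, had 91, 163 and 71 fragments with dacomitinib, against 14, 40 and 15 in controls (2.07, SE 0.43, adjusted p = 0.000390). IFI27, an interferon-induced mitochondrial protein, had 84, 136 and 104 fragments with dacomitinib, against 19, 28 and 32 in controls (1.82, SE 0.31, adjusted p = 4.63e-05). The groups did not overlap for any of these genes, and the second dacomitinib library was the highest for each. Tested by limma on log2(FPKM + 1) without the expression limit, XAF1 (adjusted p = 0.0143) and IFI27 (adjusted p = 0.0132) passed and IFI44L did not (adjusted p = 0.0632).

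IRF9, the DNA-binding partner of STAT2, had 69, 89 and 64 fragments with dacomitinib, against 47, 43 and 43 in controls. Its groups did not overlap, and it did not pass with voom (0.52, SE 0.25, adjusted p = 0.0985). A read-through gene of the same strand shares 48.4% of its exon bases. MX1, RSAD2 and MX2 were below the expression limit. MX1, an antiviral GTPase, had 22, 49 and 33 fragments with dacomitinib and 41, 41 and 28 in controls, and RSAD2, or viperin, had 46, 33 and 38 with dacomitinib and 43, 54 and 32 in controls. MX2 had 2 fragments with dacomitinib and 0 in controls.

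**Figure D5:**
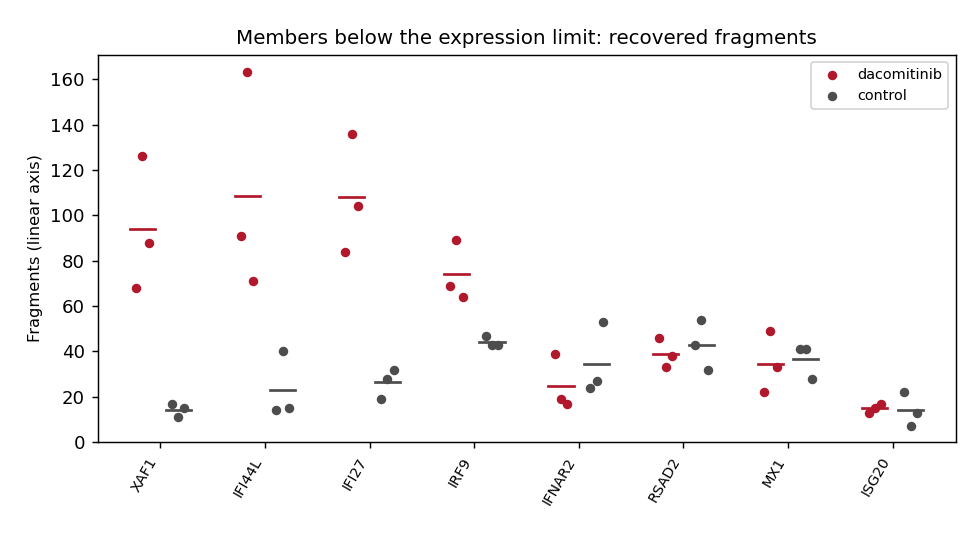
Recovered fragments of 8 members below the expression limit in each of the 6 libraries (points) with the group mean (line), on a linear axis from 0. XAF1, IFI44L, IFI27 and IRF9 have all dacomitinib libraries above all controls, and IFNAR2, RSAD2, MX1 and ISG20 overlap.

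The second dacomitinib library was the highest of its group for 15 of the 34 tested members (44.1%), and for 30.5% of all tested genes. Summed over the 31 effectors, the dacomitinib libraries held 520, 501 and 485 FPKM and the controls 474, 476 and 456 FPKM. The groups did not overlap in 14 members higher with dacomitinib and 8 lower, of 34 tested. Over all tested genes they did not overlap in 28.9% higher and 38.2% lower.

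Interferon genes themselves gave few fragments. IFNB1, IFNG, IFNL1, IFNL2 and IFNL3 had 0 fragments in both groups, which allows up to 3 fragments of 47357801 with dacomitinib and of 46532855 in controls, counting error only. IFNK, the keratinocyte interferon, had 0 fragments with dacomitinib and 3 in controls, and IFNA1 had 8 with dacomitinib and 1 in controls. IFNE, the epithelial interferon, was the only ligand tested, at 2.96, 3.43 and 2.18 FPKM with dacomitinib and 2.68, 3.56 and 2.72 FPKM in controls (difference -0.05, SE 0.15, adjusted p = 0.775).

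Of 81 other genes of the pathway, 58 were tested, 24 were higher and 11 lower, with a median difference of 0.09, where 25.4% of all tested genes were higher and 34.8% lower. With TPM 39 were higher and 5 lower, where 42.0% of all tested genes were higher and 19.8% lower. GBP2, a guanylate-binding GTPase, had 12.5, 9.81 and 9.59 FPKM with dacomitinib, against 0.934, 1.21 and 0.769 FPKM in controls (difference 2.56, SE 0.13, adjusted p = 1.00e-05). TNFSF10, the death ligand TRAIL, had 185, 147 and 156 FPKM with dacomitinib, against 46.7, 53.3 and 36.9 FPKM in controls (difference 1.82, SE 0.14). These were the largest rises among these 58 genes, followed by the neighbouring antiviral genes SAMD9L (1.34, SE 0.05) and SAMD9 (1.26, SE 0.07). Among the same 58 genes the largest falls were in SLFN11, a factor that blocks stressed replication forks (-1.35, SE 0.09), and TRIM14, an adaptor of RIG-I signalling (-1.14, SE 0.05). CGAS, the cytosolic DNA sensor (-0.85, SE 0.10), and SAMHD1, which hydrolyses deoxynucleotides (-0.82, SE 0.10), followed. HERC5, the ligase that attaches ISG15 to proteins, was below the expression limit, at 7, 21 and 13 fragments with dacomitinib and 77, 55 and 58 in controls. It was lower by limma-voom (-2.47, SE 0.42, adjusted p = 4.1e-05), further than SLFN11 in that test (-2.23, SE 0.17). Of the other listed enzymes of ISG15 attachment, UBA7 was higher by limma (difference 1.01, SE 0.08, adjusted p = 7.19e-05). UBE2L6 was not called (difference -0.02, SE 0.05, adjusted p = 0.775). HERC5, UBA7 and UBE2L6 were added after their values were seen.

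Libraries held 14960650 to 16179273 fragments on genes. All 8 keratinocyte markers were above 1 FPKM in both groups, with summed levels of 994 to 1187 FPKM with dacomitinib and 1276 to 1349 FPKM in controls. Of these markers 2 were called higher, 4 lower and 2 not called, where 25.4% of all tested genes were higher and 34.8% lower. All 12 immune cell markers were below the expression limit, with summed levels of 1.07 to 1.70 FPKM with dacomitinib and 0.526 to 1.17 FPKM in controls, and MS4A1 and CLEC4C were among those at 0 in all libraries. The 4 endothelial markers summed to 10.6 to 13.5 FPKM with dacomitinib and 1.81 to 2.20 FPKM in controls, and KDR was at 0. CDH5, the 1 tested, was higher (difference 2.35, SE 0.10, adjusted p = 6.33e-06). The 6 fibroblast markers summed to 1.00 to 1.96 FPKM with dacomitinib and 0.224 to 0.523 FPKM in controls, with PDGFRA and COL1A2 at 0, and the 4 melanocyte markers to 1.94 to 2.40 FPKM with dacomitinib and 1.08 to 1.42 FPKM in controls, with TYR at 0. By limma-voom on genes with at least 10 fragments, 3 of 3 endothelial, 2 of 3 fibroblast, 2 of 3 melanocyte and 1 of 3 immune cell markers were higher. In that test 0 of them were lower, and over all genes 22.3% were higher and 23.0% lower. DCN, a fibroblast marker, had 267, 136 and 181 fragments with dacomitinib, against 6, 2 and 3 in controls, while COL1A1 did not pass. The part of these marker genes in the results was not tested. In bulk RNA, fewer cells with a transcript and less of it per cell cannot be told apart.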

How the data were processed

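The deposited table gives FPKM for 58735 genes in 6 columns, made by the authors. HISAT2, featureCounts, DESeq2 1.20.0, fastp and CASAVA, and the build GRCh38, are named per the submitters' processing notes, which give no roles or order here. The control columns carry the initial of control and a number. The other 3 columns were assigned to dacomitinib by elimination, so the direction of every difference rests on this. FPKM times gene length gave whole fragments for 100% of values in every library (tolerance 0.01).

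FPKM are not counts, so limma 3.58.1 (R 4.3.3) with a mean-variance trend was run on log2(FPKM + 1), keeping 13748 genes whose mean over all libraries reached 1 FPKM, with all 6 libraries, no covariate and Benjamini-Hochberg adjustment over all of them. The procedure was tested on simulated fragments. Of genes given a log2 change of 0.5 there, 78.8% were called in the right direction, and of those given 1, 92.2%. Few genes were changed in the simulation and the scaling between libraries was known, so it cannot show how scaling affects the calls. An exact permutation of 3 against 3 libraries cannot go below p = 0.1. Members, lists, the rule for named genes (all members, and the 4 largest rises and falls among other pathway genes) and alternatives were chosen with earlier results of these data known. All 43 members had the same coordinates in GENCODE release 29. Of 21 members with 1 promoter window, 20 had bases after the start that matched a GENCODE transcript in the printed orientation. Protein sequences were not used here. Alternatives were other pseudocounts, filters, scalings, limma settings, limma-voom on recovered fragments, a replicate block and leaving out each library.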

Additional observations from a re-analysis of the deposited data

How the results depend on the processing

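Over 19 alternatives, the counts over all members and over effectors moved by more than 1.5 times only with TPM, where 23 members were higher and 3 lower, 14 effectors were higher and 3 lower, and 39 other pathway genes were higher and 5 lower. Other pathway genes called lower, 11 as reported, were 6 with quantile normalization and 7 when each library was scaled to its own fragment sum. Signalling members called lower, 0 as reported, were 1 with voom (IRF3) and 0 to 1 when a library was left out. Called differences whose sign was opposite to that of the reported one, or that were called as reported and changed sign, were IFNAR1 (0.22), IFIT3 (0.28), IFIT5 (0.023), IFIH1 (0.24) and DDX58 (0.0083) with TPM, and IFIT3 with quantile normalization (0.19). TPM and the scaling to the own fragment sum each multiply all values of a library by 1 factor. For the other changes the cause was not tested. Members called were 14 to 15 higher and 4 to 6 lower when 1 library was left out. The numbers of the dacomitinib columns match no label. Deviations of same-numbered libraries correlated at 0.0267, -0.0158 and 0.0402, which shows no deviation shared by number. A pairing that left little trace would look the same, so these values cannot exclude one. With the replicate block 14 members were higher and 5 lower, the IFIT5 call being lost (-0.27, adjusted p = 0.0507). Depth limits the 9 members below the expression limit, of which MX2 had 2 fragments with dacomitinib and 0 in controls.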
